A study of Mus musculus with 94 samples.

Results

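Lx8, Lx9 and Lx10 are old subfamilies of the LINE-1 (L1) retrotransposon, and their elements were followed here in the brain of Ts65Dn (TS) and wild-type (WT) mice. The elements were chosen by name: every element of the L1 count table whose subfamily begins with Lx8, Lx9 or Lx10 was taken, except Lx8_dup23295 and Lx9_dup38033. There were 56358 such elements of 430083 in the table, and they fell into the 4 subfamilies Lx8 (22484 elements), Lx8b (9832), Lx9 (20151) and Lx10 (3891). The choice went by name, but it was made with earlier results of these data known. No reason is given here for the elements left out.

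Ts65Dn mice model Down syndrome and carry an extra segment homologous to part of the human chromosome that is trisomic in Down syndrome, and lamivudine is a nucleoside inhibitor of reverse transcriptase. Male TS mice and their WT littermates of 3 to 4 months were used. They were given lamivudine at 3 mg/kg in the drinking water (WT-t and TS-t) or were non-treated (WT-nt and TS-nt). Treatment lasted 4 months, and the tissues were taken after behavioral tests. Whether the age given is that at the start of treatment or at tissue collection is not stated. Total RNA was sequenced from the cortex of 9 non-treated and 17 treated WT mice and of 9 non-treated and 13 treated TS mice, and from hippocampus with n = 8 and 17 (WT) and 8 and 13 (TS), which gave 94 libraries of 48 mice, 46 of which had both tissues. The reads were stranded, were depleted of ribosomal RNA and were assigned to single elements with Telescope, a program that gives a read with several alignments to its most probable copy. Each library is bulk tissue, so fewer cells of a type and less RNA per cell cannot be told apart. The table holds L1 elements and no genes, and marker genes of the tissues were not used here.

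L1 elements move by a copy-and-paste mechanism: a full-length element encodes an RNA-binding protein and an enzyme with endonuclease and reverse transcriptase activity, and its RNA is copied back into the genome. Lx elements were active early in the rodent lineage, and the copies in the present mouse genome are mostly truncated and mutated remnants. Many lie inside genes, where RNA of the host gene can carry their sequence in either orientation, so a count on such an element does not show that the element had a transcript of its own. Reads from intronic RNA and from an element's own promoter were not separated in these counts, and whether strand was used in counting is not given in the sources used here.

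The 4 subfamilies together held 12.4% of all L1 counts and 13.1% of all L1 elements. Lx8 took 5.75% of the counts and ranked 2 among 133 subfamilies, after L1Md_F2 with 6.38%. Lx9 took 3.68% and ranked 5, Lx8b took 2.02% and ranked 11, and Lx10 took 0.972% and ranked 31. The ranks were made with the elements left out by the rule included, with which Lx9 took 3.70%. Lx9 held a smaller share of the counts than of the elements (4.69%), and Lx8 a larger one (5.23% of the elements). These shares depend on the length of the elements, which was not used here, so levels of different elements or subfamilies are given per library and not per base.

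A count in at least 1 library was found for 54895 members, and 1463 had none. In cortex 87.7% of the members had a count, and in hippocampus 69.3%, beside 81.5% and 63.0% of all elements. A cortex library detected between 355 and 20024 members with a median of 7453, and a hippocampus library between 3035 and 11564 with a median of 5623. Only 42 members were detected in every cortex library and 202 in every hippocampus library, while 15299 and 10862 were seen in a single library of the tissue. The L1 total of a library ran from 186545 to 1165192 for cortex, and for hippocampus from 178454 to 403378. The number of members detected did not follow this total alone, since the deepest cortex library (WT-nt mouse 24) detected 6079.

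How evenly the counts were spread over the copies differed among the subfamilies. The most abundant 643 Lx8, 393 Lx8b, 987 Lx9 and 51 Lx10 elements held 50% of the cortex counts of their subfamily. In hippocampus the numbers were 322, 212, 632 and 8. Lx10 was therefore dominated by few copies: Lx10_dup3779 gave 11.7% of its cortex counts, Lx10_dup8120 gave 19.5% of its hippocampus counts, and the first 5 elements gave 34.9% and 47.2%. In the other subfamilies a single element gave at most 3.62% of the counts, which was Lx8b_dup22343 in hippocampus, and Lx8_dup14757 and Lx9_dup35330 gave 2.42% and 2.67% there.

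**Figure D1:**
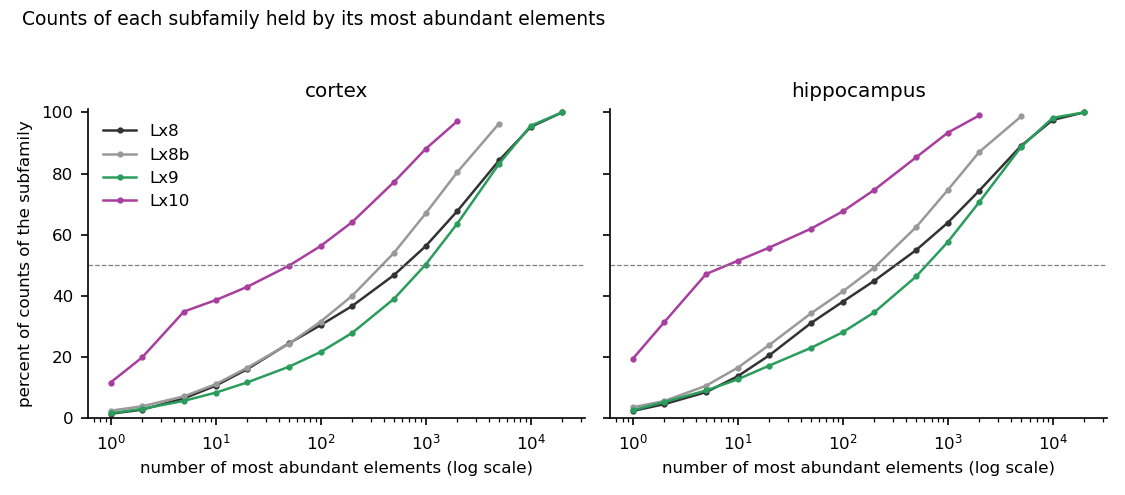
Percent of the counts of each subfamily (vertical axis) held by a given number of its most abundant elements (horizontal axis, log scale) in cortex and hippocampus, with a dashed line at 50%. The Lx10 curve lies above the others and starts at 11.7% in cortex and 19.5% in hippocampus, and the Lx9 curve reaches 50% last.

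The libraries were not alike. Along the first principal component of the tested elements, 8 libraries stood over 3 MADs (median absolute deviation) away from their tissue's median, all of them from cortex (1 WT-nt and 4 WT-t, and of TS mice 1 TS-nt and 2 TS-t). In these 8 the members took between 7.17% and 12.7% of the L1 counts with a median of 10.1%, and in the other 40 cortex libraries between 9.98% and 13.9% with a median of 12.9%. They also detected fewer members, between 355 and 6079 beside 5276 to 20024, and their most abundant element took between 4.16% and 24.2% of all L1 counts beside 1.57% to 14.3%. WT-nt mouse 24 stood apart in both tissues, with the deepest cortex library of all. Its Lx8 share in cortex was 3.74%, and its Lx10 and Lx8b shares in hippocampus were 1.39% and 1.65%. The tests of subfamilies and elements were also run without these 8 libraries. Among the 8 were the cortex libraries of mice 1, 2, 3 and 4, whose animal labels begin with 18, a start found only in treated mice. Leaving them out thus also changes the mix of label starts.

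The share of L1 counts on Lx8 was 5.85% ± 0.809 (SD, n = 9) in WT-nt, 5.71% ± 0.784 (n = 17) in WT-t, 5.85% ± 0.224 (n = 9) in TS-nt and 5.72% ± 0.738 (n = 13) in TS-t cortex. The medians were 6.07%, 6.06%, 5.88% and 6.06%, and the lowest libraries of WT-nt, WT-t and TS-t were at 3.74%, 3.48% and 4.26%. In hippocampus the 4 groups stood at 5.93% ± 0.414 (n = 8), 5.87% ± 0.251 (n = 17), 5.83% ± 0.207 (n = 8) and 5.87% ± 0.286 (n = 13), in the same order. The ranges of all 8 sets of libraries overlapped.

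Lx8b took 2.09% ± 0.103 of the L1 counts in WT-nt, 2.0% ± 0.253 in WT-t, 2.01% ± 0.130 in TS-nt and 2.0% ± 0.230 in TS-t cortex. In hippocampus the share of Lx8b was 2.06% ± 0.178, 1.98% ± 0.117, 1.97% ± 0.125 and 2.0% ± 0.0931. The WT-nt group had the highest mean in both tissues, and its range overlapped with that of each other group.

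Lx9 took 3.92% ± 0.130 in WT-nt, 3.63% ± 0.639 in WT-t, 3.74% ± 0.347 in TS-nt and 3.76% ± 0.458 in TS-t cortex, and 3.59% ± 0.277, 3.43% ± 0.300, 3.47% ± 0.319 and 3.51% ± 0.334 in hippocampus. The Lx9 mean was above that of hippocampus in each cortex group. The 9 WT-nt cortex libraries lay between 3.76% and 4.13%, which was the narrowest spread of the 8 sets, and WT-t cortex reached from 1.57% to 4.16%.

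Lx10 took 0.916% ± 0.0922 in WT-nt, 0.958% ± 0.0590 in WT-t, 0.911% ± 0.0384 in TS-nt and 0.920% ± 0.0915 in TS-t cortex and 1.03% ± 0.162, 1.06% ± 0.0932, 1.05% ± 0.0772 and 1.05% ± 0.114 in hippocampus. Cortex libraries lay between 0.691% and 1.04% and hippocampus libraries between 0.825% and 1.39%, so that the tissues overlapped.

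**Figure D2:**
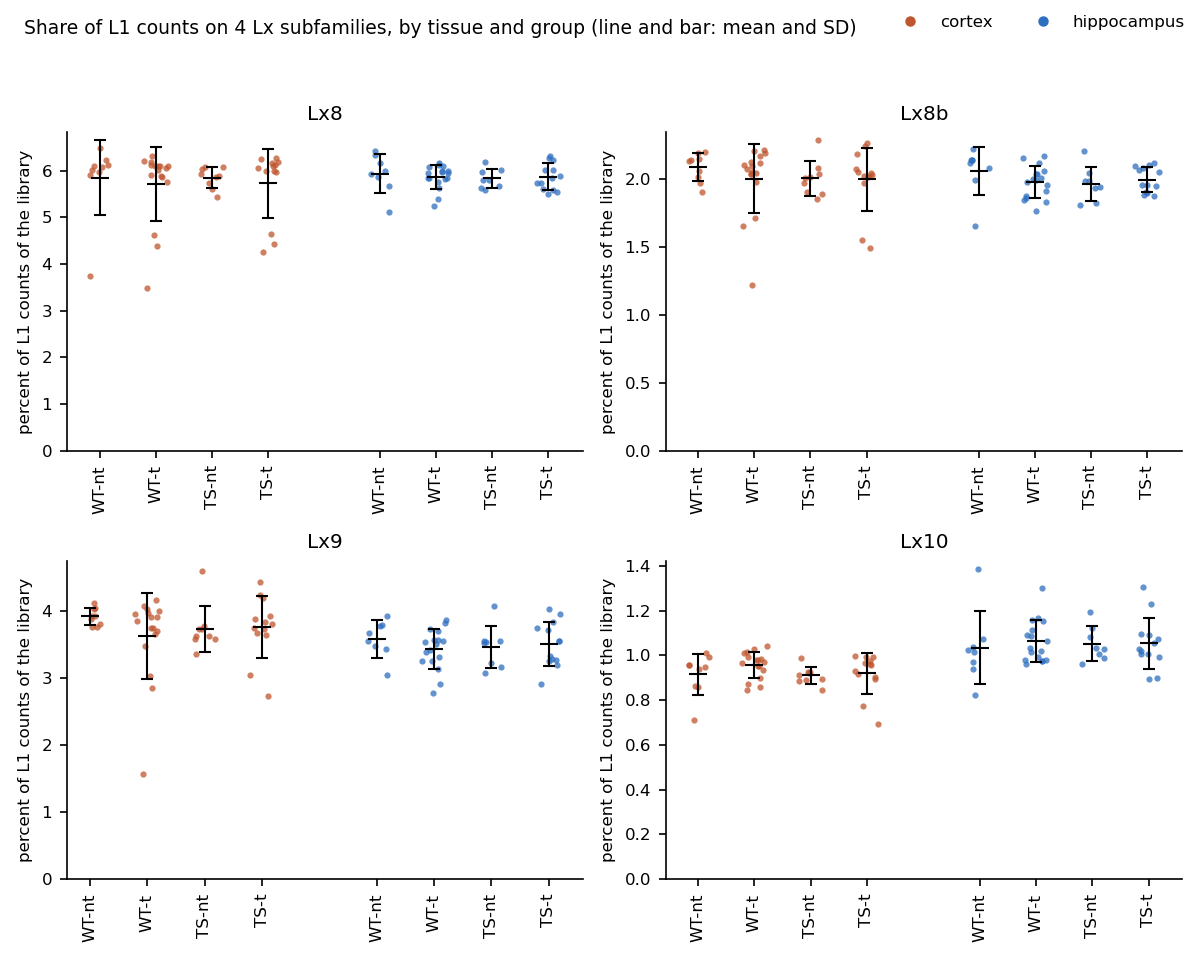
Percent of the L1 counts of a library on Lx8, Lx8b, Lx9 and Lx10 (vertical axes, from 0), 1 point per library, by group in cortex (orange) and hippocampus (blue), with mean and SD. Lx9 points sit higher in cortex and Lx10 points higher in hippocampus, while the groups of a tissue overlap. The lowest Lx9 point is a WT-t cortex library at 1.57%.

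To ask which subfamilies differed between the tissues, the summed counts of each subfamily were tested in edgeR (quasi-likelihood test, TMM factors, Benjamini-Hochberg adjustment over all subfamilies, threshold 0.1), as the mean of the 4 cortex groups against the mean of the 4 hippocampus groups. Lx9 was 9.03% higher in cortex (log2 fold change 0.12, SE 0.024, adjusted p = 5.70e-06), and its share was higher in the cortex of 39 of 46 mice. Lx10 in cortex was at 0.896 of its hippocampus level (log2 fold change -0.16, SE 0.037, adjusted p = 1.21e-04), with a higher share in the hippocampus of 41 of 46 mice. Lx8b was 2.77% higher in cortex (log2 fold change 0.039, SE 0.016, adjusted p = 0.0230), which 28 of 46 mice showed. For Lx8 the log2 fold change was -0.0044 (95% interval -0.031 to 0.022, adjusted p = 0.792), with 24 of 46 mice higher in cortex. Most features passed this test, 90 of 134 or 67.2% (133 subfamilies and 1 of the 2 elements left out of the sums, tested as a feature of its own), so that a difference between the tissues was not particular to Lx elements.

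Lx10_dup8120 held the most Lx10 counts over both tissues. In a further run the most abundant element of every subfamily was left out at once, and the TMM factors were computed anew. The log2 fold change of Lx10 was then -0.020 (adjusted p = 0.574 by edgeR). Lx8b moved to 0.00086 (adjusted p = 0.958), Lx8 to -0.042 (adjusted p = 0.0588), and Lx9 remained higher in cortex at 0.085 (adjusted p = 4.35e-05). The new factors bear on every subfamily, and leaving out Lx10_dup8120 alone was not tested. The Lx8b call was also lost without both libraries of WT-nt mouse 24 (0.020, adjusted p = 0.142), without TMM factors (0.016, adjusted p = 0.634) and without the filter on low counts (0.025, adjusted p = 0.116). Lx8 came to 0.022 and passed the threshold without the 8 cortex libraries that lay apart (adjusted p = 0.0816).

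Within single groups, Lx9 was called higher in cortex in WT-nt (log2 fold change 0.17, SE 0.054, adjusted p = 0.0127 by edgeR), where 45.5% of all features were called. In WT-t, where 44% were called, Lx9 (0.12, adjusted p = 0.00855) and Lx8b (0.073, adjusted p = 0.0163) passed. In TS-nt, where 9.7% were called, Lx10 passed (-0.25, SE 0.083, adjusted p = 0.0517), and Lx9 stood at 0.070 (adjusted p = 0.440). In TS-t, where 41% were called, Lx9 (0.14, adjusted p = 0.0156) and Lx10 (-0.16, adjusted p = 0.0595) passed. Lx10 was -0.16 in WT-nt (adjusted p = 0.119) and -0.073 in WT-t (adjusted p = 0.338). Without the 8 cortex libraries that lay apart, Lx10 also passed in WT-nt (-0.16, adjusted p = 0.0924) and WT-t (-0.15, adjusted p = 0.0261), Lx8 in WT-t (0.040, adjusted p = 0.0721) and Lx9 in TS-nt (0.10, adjusted p = 0.0742). Whether the tissue difference itself differed between the groups was not tested.

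**Figure D3:**
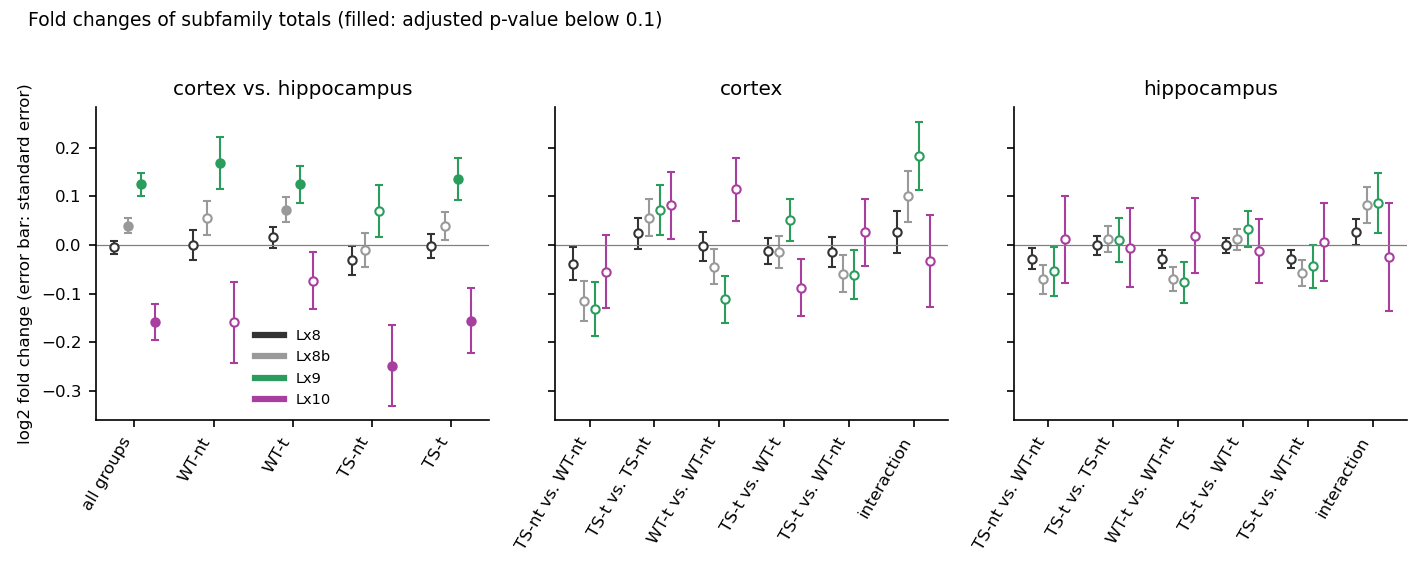
Log2 fold change of the summed counts of Lx8, Lx8b, Lx9 and Lx10 with its standard error, for cortex vs. hippocampus (left) and for the genotype and treatment comparisons in cortex (middle) and hippocampus (right), where filled points passed an adjusted p-value of 0.1. Colors stand for the subfamilies. Filled points are found only in the tissue comparison, and the lowest point is Lx10 in TS-nt at -0.25.

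For single elements, 1132 members passed the filter on low counts among 7551 elements tested between the tissues. Of these, 263 were called, 157 higher in cortex and 106 higher in hippocampus, which is 23.2% of the tested members beside 22.7% of all elements tested (12.2% higher in cortex and 10.4% higher in hippocampus). In each tissue alone the filter was passed by 539 members. Others could pass through the tissue where they were abundant, so the count describes the tested elements only. By subfamily, 115 of 533 Lx8, 48 of 194 Lx8b, 82 of 346 Lx9 and 18 of 59 Lx10 elements were called. Of the called Lx9 elements, 57 were higher in cortex and 25 in hippocampus, while the other subfamilies were divided nearly evenly (63 and 52 for Lx8, 27 and 21 for Lx8b, 10 and 8 for Lx10). The median log2 fold change of the tested members was 0.11, beside 0.087 for all elements tested, and that of Lx9 was 0.17. Within the groups 30 members were called in WT-nt (background 2.6%), 108 in WT-t (8.86%), 35 in TS-nt (2.97%) and 50 in TS-t (4.11%). With DESeq2's Wald test 273 members (24.1%) were called higher in cortex and 105 (9.28%) higher in hippocampus, beside 22.7% and 9.73% of all elements tested.

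Levels of single elements are given as CPM, counts per 1000000 of the L1 total of the library, and tests are from edgeR with p-values adjusted over all elements tested. Lx9_dup10582 was higher in cortex in 45 of 46 mice. Its cortex libraries lay between 75.7 and 1212 CPM with a median of 239, and its hippocampus libraries between 0 and 185 CPM with a median of 29.4 (log2 fold change 2.95, SE 0.249, adjusted p = 2.35e-17). The tissues overlapped between 75.7 and 185 CPM, and in each of the 4 groups the cortex median was above the hippocampus median.

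Lx9_dup34495 was higher in cortex in 42 of 46 mice. Cortex libraries ranged from 0 to 420 CPM with a median of 126, and hippocampus libraries from 0 to 177 CPM with a median of 42.6 (log2 fold change 1.59, SE 0.187, adjusted p = 1.15e-13). Lx9_dup15504 was detected in 45 of 48 cortex and 18 of 46 hippocampus libraries, with medians of 42.7 and 0 CPM (log2 fold change 3.15, SE 0.361, adjusted p = 5.16e-14). The ranges of both elements overlapped between the tissues. Both were picked for small p-values, and Lx9_dup15504 passed the filter on low counts through cortex.

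A pair of elements was nearly silent in hippocampus. Lx9_dup34674 had 374 counts in 38 of 48 cortex libraries and 13 counts in 6 of 46 hippocampus libraries (adjusted p = 5.55e-14). Lx8_dup7068 had 300 counts in 39 cortex libraries and 6 counts in 4 hippocampus libraries (adjusted p = 1.58e-13). Since at least 1 hippocampus group was at 0 for each, no fold change is given. Both passed the filter on low counts through cortex and were picked for small p-values, so these p-values are given as a description. Lx8_dup7068 had a median of 5.63 CPM in WT-nt, 16.1 in WT-t, 24.5 in TS-nt and 32.8 in TS-t cortex, with ranges that all started at 0 and overlapped.

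Among elements higher in hippocampus, Lx10_dup8120 was the most abundant. It lay between 232 and 2048 CPM in cortex with a median of 788 and between 519 and 4476 CPM in hippocampus with a median of 1965, and 45 of 46 mice had the higher value in hippocampus (log2 fold change -1.25, SE 0.118, adjusted p = 1.05e-17). The group medians in cortex were 647 and 911 CPM in WT-nt and WT-t and 744 and 642 CPM in TS-nt and TS-t, and those in hippocampus were 1520, 2085, 2140 and 1901 CPM, so that the tissue order held in each group. Lx10_dup3779, the other abundant Lx10 copy, had medians of 1097 and 1194 CPM and did not pass (log2 fold change -0.054, adjusted p = 0.774).

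Lx8_dup7736 lay between 136 and 1637 CPM in cortex with a median of 665 and between 598 and 2301 CPM in hippocampus with a median of 1331 (log2 fold change -0.80, SE 0.107, adjusted p = 3.85e-11). In 45 of 46 mice its level was higher in hippocampus. Lx8b_dup11193 had medians of 10.8 and 52.4 CPM (log2 fold change -2.06, SE 0.291, adjusted p = 9.09e-10), with 35 of 46 mice higher in hippocampus. Lx9_dup33033 was detected in 17 of 48 cortex and 42 of 46 hippocampus libraries, with medians of 0 and 19.7 CPM (log2 fold change -2.88, SE 0.444, adjusted p = 1.50e-08). Lx8b_dup22202 had 14 counts in 4 cortex libraries and 211 counts in 36 hippocampus libraries (adjusted p = 1.04e-11), and no fold change is given since whole cortex groups were at 0. Lx8b_dup11193, Lx9_dup33033 and Lx8b_dup22202 passed the filter on low counts through hippocampus. They were picked for small p-values, so these p-values are given as a description.

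**Figure D4:**
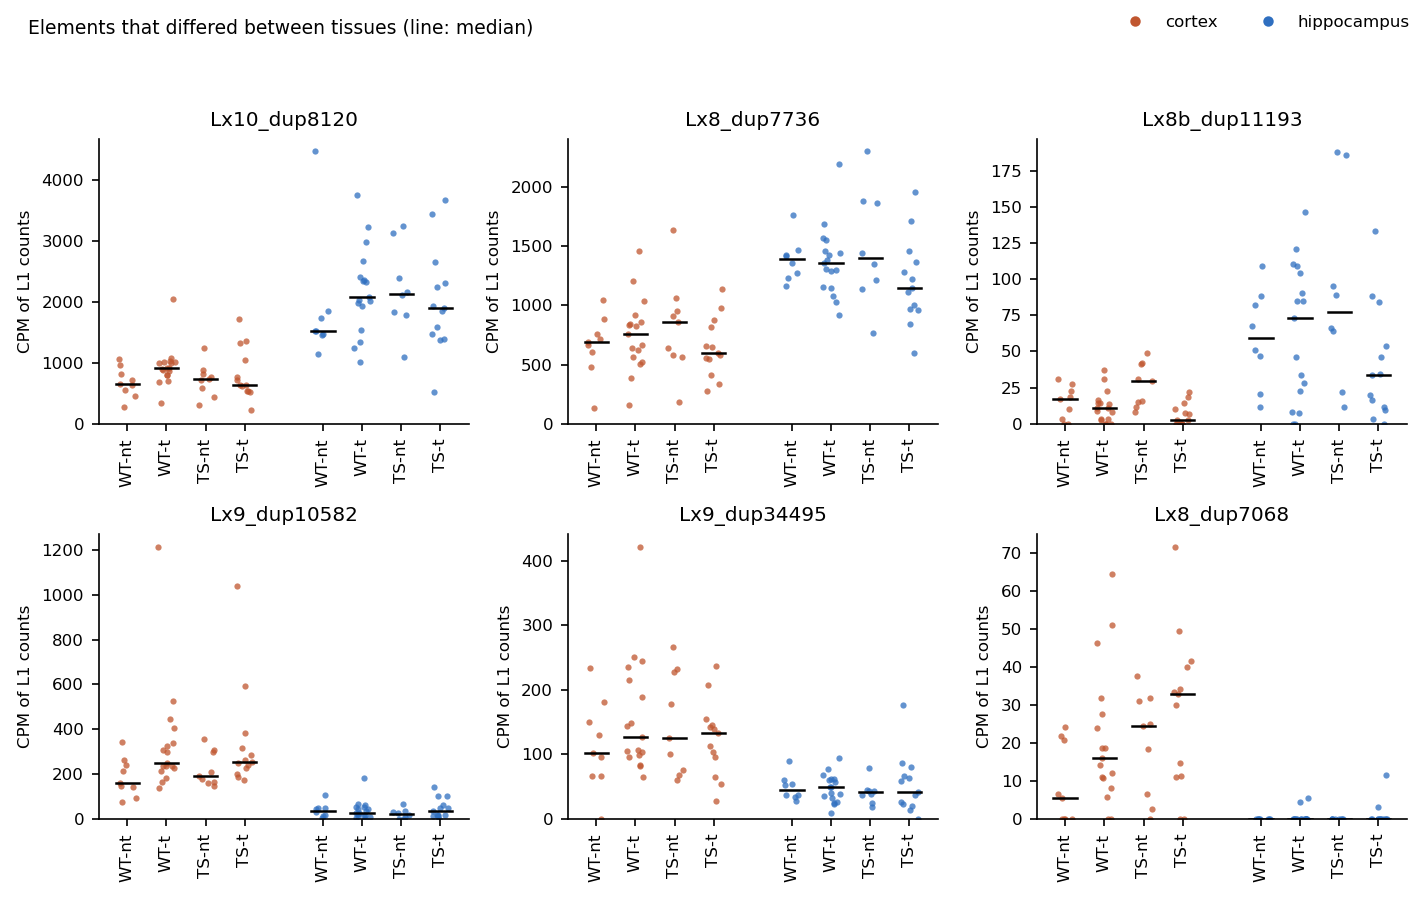
CPM of 6 elements called between the tissues, 1 point per library, by group in cortex (orange) and hippocampus (blue), with the group median as a line. Lx10_dup8120, Lx8_dup7736 and Lx8b_dup11193 are higher in hippocampus, and Lx9_dup10582, Lx9_dup34495 and Lx8_dup7068 are higher in cortex, the last with 4 hippocampus libraries above 0.

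The most abundant copies of the other subfamilies were also higher in hippocampus. Lx8_dup14757 had medians of 900 CPM in cortex and 1424 CPM in hippocampus (log2 fold change -0.57, adjusted p = 7.16e-07 by edgeR), Lx9_dup20488 of 621 and 924 CPM (-0.58, adjusted p = 1.22e-05), Lx9_dup35330 of 652 and 943 CPM (-0.38, adjusted p = 0.00497) and Lx8b_dup22343 of 533 and 684 CPM (-0.34, adjusted p = 0.0214). Lx8_dup19936 went the other way, with 777 and 628 CPM (0.35, adjusted p = 0.0631), and Lx8_dup43228 did not pass, with 723 and 785 CPM (0.083, adjusted p = 0.671). So the subfamily Lx9 as a whole was higher in cortex while its copies Lx9_dup20488 and Lx9_dup35330 were higher in hippocampus. Other Lx9 copies, such as Lx9_dup10582 (above), were higher in cortex.

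The genotype and treatment comparisons were tested in each tissue with all 4 groups in the model, for the 4 subfamilies and for the members that passed the filter, 831 of 5416 elements in cortex and 597 of 4238 in hippocampus. The tested members held 38.7% and 44% of the counts of all members. None of the 4 subfamilies was called by edgeR in the genotype comparisons (TS-nt vs. WT-nt and TS-t vs. WT-t), the treatment comparisons (WT-t vs. WT-nt and TS-t vs. TS-nt), TS-t vs. WT-nt or the interaction of treatment and genotype, in either tissue. Among all subfamilies 0.746% were called in cortex in both genotype comparisons and in TS-t vs. WT-nt, 1.5% in hippocampus in TS-nt vs. WT-nt and 0.752% in TS-t vs. WT-nt, and 0% in the other 7 comparisons. Comparisons with WT-nt share the WT-nt libraries and are not independent of each other. All non-treated mice have animal labels beginning with 20, as do only 3 of the WT-t and 8 of the TS-t mice. Comparisons that involve treated mice thus also differ in label start, and the 2 cannot be fully told apart.

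In the cortex of non-treated mice, Lx8b and Lx9 had the smallest p-values of the 4 subfamilies. Lx9 in TS-nt was at 0.912 of its WT-nt level (log2 fold change -0.13, 95% interval -0.24 to -0.023), and Lx8b was at 0.923 of it (-0.11, interval -0.20 to -0.034). Neither passed edgeR's adjustment (adjusted p = 0.150 for both). DESeq2 put both just past the threshold (Lx8b -0.15, adjusted p = 0.0983, and Lx9 -0.16, adjusted p = 0.0999). Without the cortex library of WT-nt mouse 24 edgeR gave -0.069 for Lx8b and -0.075 for Lx9 (adjusted p = 0.804 and 0.844), and without the 8 libraries that lay apart -0.068 and -0.067 (adjusted p = 0.363 and 0.409). Lx8 (-0.038, interval -0.10 to 0.029) and Lx10 (-0.055, interval -0.20 to 0.091) did not pass either.

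With lamivudine, Lx9 in WT-t cortex was at 0.925 of its WT-nt level (log2 fold change -0.11, 95% interval -0.21 to -0.017, adjusted p = 0.332 by edgeR) and in TS-t at 1.05 of its TS-nt level (0.071, interval -0.029 to 0.17, adjusted p = 0.684). The interaction of treatment and genotype was 0.18 (SE 0.070, adjusted p = 0.230 by edgeR and 0.0983 by DESeq2), and it was 0.077 (adjusted p = 0.854) without the 8 libraries that lay apart, which also brought Lx9 in WT-t vs. WT-nt to -0.027 and Lx10 there to 0.031 (adjusted p = 0.994 for both). For Lx8b the treatment differences were -0.044 in WT and 0.056 in TS mice, for Lx8 -0.0031 and 0.024, and for Lx10 0.11 and 0.082, and none of these passed. TS-t and WT-nt cortex differed by between -0.061 (Lx9) and 0.026 (Lx10), and TS-t and WT-t by between -0.088 (Lx10) and 0.051 (Lx9).

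In hippocampus Lx8b in TS-nt was at 0.952 of its WT-nt level (log2 fold change -0.070, 95% interval -0.13 to -0.013, adjusted p = 0.348 by edgeR) and in WT-t at 0.952 of it (-0.070, interval -0.12 to -0.021, adjusted p = 0.780). Both passed when the hippocampus library of WT-nt mouse 24 was left out, a setting chosen after seeing the data (-0.10, adjusted p = 0.0811, and -0.091, adjusted p = 0.0441). Lx9 was -0.054 in TS-nt and -0.077 in WT-t, each vs. WT-nt (adjusted p = 0.780 and 0.852). Lx8 lay between -0.029 and -0.00061 and Lx10 between -0.013 and 0.019 over the 5 comparisons between groups. For Lx8 the 95% interval of TS-t vs. TS-nt was -0.038 to 0.037, and for Lx10 it was -0.16 to 0.15.

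The spread between mice sets how small a difference could be seen. The biological coefficient of variation estimated by edgeR in cortex was 0.0781 for Lx8, 0.0779 for Lx8b, 0.0994 for Lx9 and 0.113 for Lx10, below the median of 0.159 over all subfamilies. In hippocampus it was 0.0510, 0.0557 and 0.0809 for Lx8, Lx8b and Lx9, and 0.127 for Lx10 beside a median of 0.112. Lx10 was the most variable of the 4 in both tissues.

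No member was called in any of the 12 genotype and treatment comparisons by edgeR. Among all elements 0.0708% were called in hippocampus in TS-nt vs. WT-nt and 0.0472% in TS-t vs. WT-nt, and 0% in the other hippocampus comparisons and in cortex. At an unadjusted p below 0.05 there were in cortex 6 members for genotype without and 10 with treatment, 7 for treatment in WT and 11 in TS mice, 7 for TS-t vs. WT-nt and 6 for the interaction. The same comparisons gave 22, 25, 18, 20, 21 and 23 members in hippocampus. These were 0.722% to 1.32% of the tested members in cortex beside 0.905% to 2.0% of all 5416 elements, and 3.02% to 4.19% beside 3.11% to 4.25% of all 4238 in hippocampus. DESeq2 called 0 members in 11 comparisons and 1 in TS-t vs. WT-nt in hippocampus. With no filter on low counts edgeR called between 1442 and 8369 members in the 6 cortex comparisons, all of them elements that the filter removes, which was 2.92% to 16.9% of the members beside 2.98% to 18.4% of all elements. The median log2 fold change of the tested members was 0.030 in TS-nt vs. WT-nt cortex beside 0.069 for all elements tested, and -0.062 beside -0.033 in hippocampus.

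The member with the smallest unadjusted p is given for each comparison, since none was called. In cortex Lx8_dup48025 led TS-nt vs. WT-nt and TS-t vs. WT-nt. It lay between 0 and 65.4 CPM in WT-nt with a median of 29.9, between 0 and 123 CPM in WT-t with a median of 53.4, between 19.7 and 115 CPM in TS-nt with a median of 86.0 and between 17.7 and 261 CPM in TS-t with a median of 59.5. WT-nt libraries were lower with an overlap to each other group (log2 fold change 1.28, SE 0.504, adjusted p = 0.999 for TS-nt, and 1.63, SE 0.479, adjusted p = 0.999 for TS-t by edgeR). In hippocampus its group medians were 21.2 and 38.6 CPM in WT-nt and WT-t and 39.9 and 62.6 CPM in TS-nt and TS-t.

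Lx9_dup10582, which differed between the tissues, led TS-t vs. TS-nt in cortex. Its TS-nt libraries lay between 147 and 357 CPM and its TS-t libraries between 175 and 1039 CPM, with medians of 191 and 256 (log2 fold change 0.81, SE 0.312, adjusted p = 1.00 by edgeR). The leading members of the other cortex comparisons were Lx8_dup7918 in WT-t vs. WT-nt (medians of 16.6 and 3.63 CPM, log2 fold change 1.78, SE 0.729), Lx8_dup40833 in TS-t vs. WT-t (34.2 and 13.6 CPM, 1.42, SE 0.546) and Lx9_dup40901 in the interaction (2.09, SE 0.904). Their adjusted p-values by edgeR were 0.999, 0.999 and 1.00, and the groups of each overlapped.

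In hippocampus Lx8_dup45029 led TS-nt vs. WT-nt and both comparisons of TS-t with WT mice. It lay between 20.8 and 93.2 CPM in WT-nt with a median of 41.2, between 11.6 and 123 CPM in WT-t with a median of 67.6, between 62.0 and 209 CPM in TS-nt with a median of 98.3 and between 39.3 and 235 CPM in TS-t with a median of 109. The TS medians were above the WT medians, and the ranges of all 4 groups overlapped. The log2 fold changes were 1.04 (SE 0.358, adjusted p = 0.884) for TS-nt vs. WT-nt, 1.03 (SE 0.329, adjusted p = 0.523) for TS-t vs. WT-nt and 0.72 (SE 0.258, adjusted p = 0.934) for TS-t vs. WT-t by edgeR, and the first and second share the WT-nt libraries. In cortex its log2 fold change in TS-nt vs. WT-nt was 0.47 (SE 0.477).

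Lx9_dup32769 led TS-t vs. TS-nt in hippocampus, with 129 to 342 CPM and a median of 243 in TS-nt and 43.1 to 224 CPM and a median of 130 in TS-t (log2 fold change -0.68, SE 0.229, adjusted p = 1.00 by edgeR). Lx8_dup2215 led the interaction (-0.77, SE 0.251, adjusted p = 1.00), with medians of 206 and 294 CPM in WT-nt and WT-t and 317 and 265 CPM in TS-nt and TS-t. Its WT-nt and TS-nt libraries overlapped between 205 and 288 CPM.

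Lx8_dup21450 led WT-t vs. WT-nt in hippocampus. Its 8 WT-nt libraries had 72.0, 83.2, 86.3, 437, 490, 499, 591 and 623 CPM, and its WT-t libraries lay between 421 and 788 CPM with a median of 632 (log2 fold change 0.74, SE 0.227, adjusted p = 1.00 by edgeR). So 3 WT-nt libraries were far below all WT-t libraries and the other 5 overlapped with them. The low ones were from mice 42, 43 and 44, whose cortex had 595, 569 and 531 CPM.

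The supplementary list of the study names 6 of these elements for single comparisons. The list was drawn from the same libraries, so the values below are not independent evidence, and p-values are from exact two-sided permutation tests of the mean CPM in the 8 listed pairs of element and comparison. Of the 6, Lx8_dup48025 (above, exact permutation p = 0.00875 for TS-t vs. WT-nt in cortex) is the only one that passed the filter for edgeR in the tissue where it was listed. Without the libraries of WT-nt mouse 24, and for cortex without the 8 libraries that lay apart, all these pairs kept their direction, with exact permutation p between 4.11e-04 and 0.0230 and between 1.98e-04 and 0.0468 (settings chosen after seeing the data).

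Lx8_dup2917 lies on chromosome 1 (mm10, chr1:150418170-150419163, minus strand), in an intron of Tpr, a gene on the plus strand for a protein of the nuclear pore basket. In cortex its WT-nt libraries had 8.44, 9.26, 14.5, 19.9, 21.2, 22.3, 24.3, 31.6 and 36.8 CPM and its TS-nt libraries 0 in 4 and 3.28, 3.87, 3.93, 11.3 and 12.3 CPM in the others. TS-nt was lower with a small overlap (20.9 ± 9.44 and 3.85 ± 4.82 CPM, SD, n = 9 and 9, exact permutation p = 2.88e-04). TS-t cortex (7.22 ± 11.9 CPM, n = 13) was also below WT-nt (exact permutation p = 0.00892), with 1 library at 43.6 CPM, and WT-t cortex had a mean of 7.37 ± 8.23 CPM. In hippocampus the group medians were 11.8 and 5.60 CPM in WT-nt and WT-t and 10.9 and 9.52 CPM in TS-nt and TS-t, with ranges that all started at 0.

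Lx8_dup48803 (mm10, chr19:45602042-45602810, plus strand) lies in an intron of Fbxw4, a gene on the minus strand for an F-box protein, a class of proteins that recruit substrates for ubiquitination. It had 52 counts in 8 of 9 WT-nt cortex libraries and 8 counts in 4 of 13 TS-t cortex libraries (12.8 ± 8.02 and 1.92 ± 3.65 CPM, SD, n = 9 and 13, exact permutation p = 3.96e-04). Of the WT-nt counts 40.4% came from the deep library of mouse 24, and without it there were 31 counts and a mean of 12.1 ± 8.31 CPM (SD, n = 8, exact permutation p = 9.53e-04). TS-nt (5.78 ± 7.22 CPM) and WT-t (4.69 ± 6.29 CPM) lay between them, and all groups overlapped.

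Lx8_dup11305 (mm10, chr4:85284708-85285605, minus strand) lies in an intron of Sh3gl2, a plus-strand gene for an endophilin of synaptic vesicle endocytosis. WT-nt cortex libraries had 0, 0, 3.09, 3.32, 20.8, 28.1, 42.4, 58.3 and 58.4 CPM, and TS-t cortex libraries between 0 and 18.6 CPM with a median of 2.45. The upper WT-nt libraries exceeded all TS-t libraries and the lower ones did not (23.8 ± 24.3 and 4.40 ± 6.13 CPM, SD, n = 9 and 13, exact permutation p = 0.00742).

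Lx9_dup4279 (mm10, chr2:42563859-42564082, minus strand) lies in an intron of Lrp1b, a minus-strand gene for a receptor of the LDL receptor family, and is thus in the orientation of its host gene. It had 3 counts in 3 of 9 WT-nt cortex libraries and 56 counts in 11 of 13 TS-t libraries (1.03 ± 1.55 and 11 ± 8.49 CPM, SD, n = 9 and 13, exact permutation p = 0.00222). TS-nt cortex had a mean of 11.1 ± 8.12 CPM and WT-t cortex 6.41 ± 8.20 CPM. In hippocampus the mean was 5.55 ± 4.57 CPM in WT-nt and 3.09 ± 8.07 CPM in TS-t, so that WT-nt was not the lower of these groups there.

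Lx8_dup1602 was listed for hippocampus in WT-t vs. WT-nt and TS-t vs. WT-nt, and it is given without a position because the list holds more than 1. Its 8 WT-nt hippocampus libraries had 0, 0, 7.80, 16.6, 26.9, 409, 428 and 533 CPM. The WT-t libraries lay between 0 and 39.2 CPM and the TS-t libraries between 0 and 35.8 CPM, so that 5 WT-nt libraries lay within their range and the other 3 far above it (means of 178 ± 234, 17.1 ± 12.0 and 10.1 ± 10.9 CPM, SD, n = 8, 17 and 13). The exact permutation p of the means was 0.0210 for WT-t and 0.0201 for TS-t, and on ranks it was 0.548 and 0.172. The medians were 21.8, 14.8 and 6.48 CPM.

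The 3 high libraries came from WT-nt mice 42, 43 and 44, which were the ones low in Lx8_dup21450. Values above 100 CPM of Lx8_dup1602 were found in 2 further libraries, in the cortex of TS-t mouse 2 (117 CPM) and of WT-t mouse 6 (437 CPM), and the other 89 libraries had at most 46.1 CPM with a median of 12.4. In these 5 libraries Lx8_dup21450 had between 56.1 and 86.3 CPM, while in the other 89 its median was 558 CPM, with 1 library at 60.9 CPM (cortex of WT-nt mouse 24) and the next at 155 CPM. The other tissue of the same 5 mice had between 0 and 39.9 CPM of Lx8_dup1602 and between 462 and 595 CPM of Lx8_dup21450. The pair was put side by side after its values were seen, and no test was made.

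**Figure D5:**
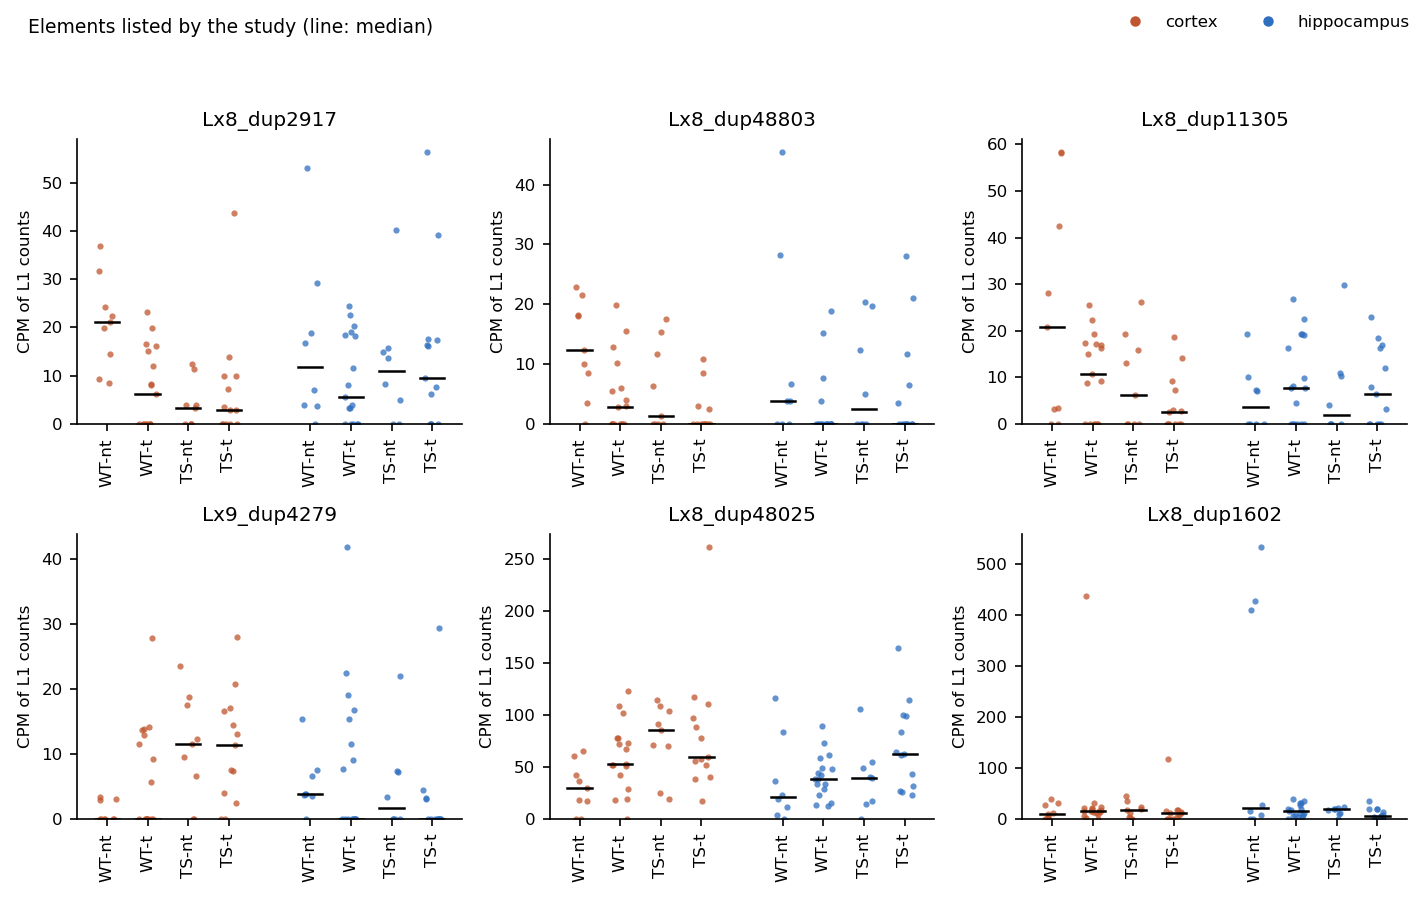
CPM of the 6 elements that the study lists, 1 point per library, by group in cortex (orange) and hippocampus (blue), with the group median as a line. Lx8_dup2917 is highest in WT-nt cortex with a median of 21.2 CPM, and the 3 WT-nt hippocampus libraries of Lx8_dup1602 above 400 CPM stand apart from the other 5.

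Since most mice gave both tissues, the level of each subfamily was compared between the cortex and the hippocampus of the same mouse over 46 mice, on the log2 CPM scale, with permutation p-values adjusted over the 4 subfamilies. The correlation was 0.43 for Lx8 (Pearson's r, adjusted permutation p = 0.00567; Spearman's rho 0.42, adjusted p = 0.00512), 0.42 for Lx9 (0.00567; rho 0.53, 9.20e-04) and 0.54 for Lx10 (0.00264; rho 0.46, 0.00316). For Lx8b it was 0.096 (adjusted permutation p = 0.528; rho 0.25, adjusted p = 0.0927). Without the 2 mice farthest from the cortex median r was 0.41, 0.54, 0.41 and 0.35 for Lx8, Lx9, Lx10 and Lx8b. All non-treated mice have animal labels beginning with 20, while treated mice have labels beginning with 18, 19 or 20. Within the 27 mice of that label start r was 0.41 for Lx8, 0.23 for Lx9, 0.20 for Lx10 and 0.023 for Lx8b (unadjusted permutation p = 0.0313, 0.247, 0.328 and 0.913), and rho was 0.34, 0.40, 0.20 and 0.28 (0.0799, 0.0402, 0.306 and 0.161). Within the 12 mice with labels beginning with 19 r was 0.76, 0.61, 0.67 and 0.32 and rho 0.76, 0.45, 0.81 and 0.45. Within the 7 mice beginning with 18 r was 0.14, 0.62, 0.86 and 0.56 and rho 0.25, 0.96, 0.54 and 0.79. In the largest label set r passed an unadjusted 0.05 for Lx8 and rho for Lx9, and neither did for Lx10.

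For the 539 members tested in both tissues the median Spearman's rho across mice was 0.13, 7 had a rho above 0.5 and 123 had one below 0. Lx8b_dup23865 had the highest (0.65), and Lx10_dup3779 was the only one of the 7 among the most abundant copies (0.56). These correlations share libraries and depth and are given as a description.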

How the data were processed

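The authors used Trimmomatic 0.38 for trimming and HISAT2 2.1.0 for alignment of the total RNA reads to GRCm38/mm10, allowing several alignments per read, and deposited raw counts per L1 element made with Telescope. The deposited counts are whole numbers and were not normalized, so that a multi-mapping read was placed by a model and copies of near-identical sequence share this uncertainty. StringTie 2.1.3b, also named in the submitters' processing notes, was not needed for this table. Gene counts were not used here.

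Here, counts were summed by subfamily or kept per element, and the whole table was filtered with filterByExpr (minimum count 10), scaled with TMM factors and tested with edgeR 4.0.16 (quasi-likelihood, robust; limma 3.58.1, R 4.3.3) in a model of the 4 groups of a tissue, or of all 8 sets of libraries for cortex vs. hippocampus. P-values were adjusted by Benjamini-Hochberg over all features tested, with a threshold of 0.1. The SE of an edgeR log2 fold change was taken as its absolute value divided by the square root of the F statistic of the test. Intervals are 95% (1.96 SE) and are approximate. CPM refers to the L1 total of a library. Permutation tests and correlations were run in Python 3.11.15 with numpy 2.4.6, scipy 1.17.1 and pandas 2.3.3, with all arrangements enumerated for the listed elements and 100000 draws for correlations, on log2 CPM with a prior count of 2.

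Elements named were those of the study's supplementary list, the most abundant member of each subfamily and the 5 most abundant of all in each tissue, the 5 called members with the smallest p-values in each direction between the tissues, and, per genotype or treatment comparison, the called members or else the one with the smallest p. The members and lists were chosen with earlier results of these data known. Positions are from the study's list and were annotated with GENCODE M21. Alternatives were DESeq2 1.42.0, other scalings, filters and thresholds, only 2 groups in the model, treated mice with labels beginning with 20, leaving out libraries or abundant elements, adding the 2 elements left out, and the mouse as a block. The mouse is shared by the libraries of a number, and its cortex and hippocampus levels correlated by between 0.096 and 0.54 over the 4 subfamilies. The fits were also run on simulated counts with known changes, the same spread for every feature of a run and no outlying libraries. That setting differs from these data. No libraries of a group were identical. Each label names 1 animal, so a library was taken as 1 mouse. The study's methods also speak of samples pooled by condition, and if libraries were pools, n and the spread would be those of pools.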

Additional observations from a re-analysis of the deposited data

Results flagged for a closer look

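For groups of 4 to 10 libraries, the shares of the 4 subfamilies and the levels of abundant and listed elements were searched for a library far from the rest of its group (Dixon's test). Of 64 sets 14 held one. The nominal rate of the test is about 1 in 20. The sets share libraries, and some listed elements had libraries at 0 CPM, so 14 of 64 cannot be compared with that rate. WT-nt mouse 24 accounted for 8 of the 14. In cortex its Lx8 share was 3.74% (others 5.91% to 6.48%), its level of Lx8b_dup22343 was 117 CPM (others 441 to 625) and that of Lx9_dup20488 was 38.6 CPM (others 515 to 756). In hippocampus its Lx8b share was 1.65% (others 1.99% to 2.23%) and its Lx10 share 1.39% (others 0.825% to 1.07%), with 2467 CPM of Lx10_dup3779 (others 875 to 1349), 4476 CPM of Lx10_dup8120 (others 1144 to 1853) and 1826 CPM of Lx9_dup35330 (others 742 to 1057). In that library the Lx10 share was above and the Lx8b share below all others of the group.

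TS-nt mouse 27 had an Lx9 share of 4.60% in cortex (others 3.37% to 3.79%), in a library of 763030 L1 counts with 20024 members detected, and 29.7 CPM of Lx8_dup11305 in hippocampus (others 0 to 10.9). TS-nt mouse 34 had 40.2 CPM of Lx8_dup2917 (others 0 to 15.8) and 22 CPM of Lx9_dup4279 (others 0 to 7.44) in hippocampus. Lx8b_dup22343 was at 1261 CPM in the cortex of TS-nt mouse 23 (others 399 to 766) and at 1378 CPM in the hippocampus of WT-nt mouse 43 (others 580 to 906).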

How the results depend on the processing

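Of 279 alternative values of the 4 subfamilies in the genotype and treatment comparisons, 253 kept direction and side of the threshold, 21 reversed and 5 became calls. Of 52 values for cortex vs. hippocampus 41 were kept, and of 192 within single groups 147. Values are log2 fold changes from edgeR unless noted, and the cause of a change was not tested.

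Lx9 in cortex vs. hippocampus passed under every alternative run. The call of Lx10 was lost only without the most abundant elements (-0.020). Lx8b lost its call without them (0.00086), without TMM factors (0.016), with no filter (0.025) and without both libraries of mouse 24 (0.020), the last a setting chosen after seeing the data, as was leaving out the hippocampus library of that mouse. Lx8 became a call without the most abundant elements (-0.042), and reversed with DESeq2's size factors (0.0086), DESeq2 (0.0084) and without the libraries lying apart (0.022). Leaving out single libraries gave -0.00096 to 0.0081 for Lx8. With the mouse as replicate block the values were -0.0028, 0.046, 0.13 and -0.14 for Lx8, Lx8b, Lx9 and Lx10, with 297 members called (26.8% beside 26%), and the pairing changed no subfamily call.

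Members called in cortex vs. hippocampus numbered 3787 with no filter (6.90% of the members beside 6.45% of all elements), 3168 higher in cortex (5.77% beside 5.40%) and 619 lower, and 141 with a minimum count of 20 (42.3% beside 40.4%), 65 of them higher (19.5% beside 19.5%). DESeq2 called 273 higher (24.1% beside 22.7%). With no filter the cortex comparisons gave 6157 members for genotype without and 5906 with treatment, 7401 and 1442 for treatment in WT and in TS mice, 8369 for TS-t vs. WT-nt and 1885 for the interaction. Hippocampus gave 3640 for genotype with treatment, 1947 and 2674 for treatment in WT and TS mice, 2630 for TS-t vs. WT-nt and 1830 for the interaction, and 0 for genotype without treatment (7996 at an unadjusted p below 0.05). These were 2.92% to 16.9% of the members in cortex beside 2.98% to 18.4% of all elements, and 4.68% to 9.32% beside 4.59% to 9.27% in the 5 hippocampus comparisons with calls. The filter removes all of these elements but 1, and 3663 of the 3787. DESeq2 called 1 member in TS-t vs. WT-nt in hippocampus, and in cortex Lx8b (-0.15) and Lx9 (-0.16) in TS-nt vs. WT-nt and 1 of the 4 subfamilies, Lx9, in the interaction.

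Without the hippocampus library of mouse 24 Lx8b became a call in TS-nt vs. WT-nt (-0.10) and WT-t vs. WT-nt (-0.091). Small differences changed sign. In cortex, Lx8 without TMM factors was 4.6e-05 in TS-nt vs. WT-nt and -0.031 in TS-t vs. TS-nt, and Lx8b there -0.0057. Leaving out 1 library gave Lx8 -0.0019 to 0.024 in TS-t vs. TS-nt, and for treatment in WT mice gave Lx8b -0.044 to 0.0012. Without the most abundant elements Lx8 was -0.0040 for treatment in TS mice and 0.024 for treatment in WT mice, and with treated mice of labels beginning with 20 it was 0.049 in the latter. In hippocampus TS-t vs. TS-nt, Lx8 and Lx10 were 0.0049 and 0.00073 with DESeq2's size factors, 0.0090 and 0.0016 without TMM factors, 0.0050 and 0.00075 with DESeq2 and 0.0050 and 0.0015 without mouse 24. Lx8 was 0.0012 there with no filter and Lx10 0.015 without the most abundant elements, a setting that gave Lx10 -0.0063 in TS-nt vs. WT-nt. Treated mice of labels beginning with 20 gave Lx9 -0.025 for treatment in TS mice and Lx10 -0.14 for treatment in WT mice.

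Between the tissues within groups, Lx8 reversed in WT-nt without TMM factors (-0.021), with no filter (-0.033) and without the most abundant elements (-0.057), in WT-t under the same settings (-0.038, -0.00095 and -0.022), in TS-nt without TMM factors (0.0041), and in TS-t with DESeq2's size factors (0.013), DESeq2 (0.013) and without the libraries lying apart (0.030). Leaving out 1 library gave Lx8 -0.011 to 0.017 in WT-nt, -0.018 to 0.012 in TS-nt and -0.0016 to 0.0044 in TS-t, and Lx8b -0.0019 to 0.0071 in TS-nt. Lx8b in TS-nt was 0.028 without TMM factors, 0.015 without the libraries lying apart, 0.0058 without mouse 24 and 0.00068 with the 2 excluded elements, -0.022 in WT-nt without mouse 24 and -0.0026 in TS-t without the most abundant elements. Lx10 in WT-t was 0.063 without the most abundant elements.

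The counting depth limits single elements more than subfamilies. Most members did not pass the filter, and calls on them without it are given above.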
